A study of Mus musculus with 18 samples.

Results

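The genes described here encode the enzymes of cholesterol synthesis and the proteins that sense, store, move and export sterols. They were chosen by symbol from a list that was drawn up with earlier results of these data known, by a rule that uses no measured values, and all 29 of the 29 listed genes were found among the 24054 genes of each table. RNA-Seq was performed on hypothalamus, pituitary and thyroid of WT mice (numbers 1, 2 and 43) and K146Q mice (numbers 60, 62 and 83). Each tissue had 3 mice per genotype, giving 18 libraries in 6 groups of 3, with the same 6 numbers in every tissue. The labels do not say that a number marks the same animal in each tissue. All mice were untreated males of the C57BL/Ntac strain, 3 months of age. K146Q mice carried, on both alleles and in every cell of the body, the K146Q substitution of a lysine by glutamine in the thyroid hormone receptor THRB, at a residue to which the small protein SUMO is normally attached, and WT mice of the same substrain carried the unchanged receptor. Since every tissue carried the mutation, an origin within a gland and signals between the glands cannot be told apart. The libraries held 15395363 to 15865500 reads in WT and 14902330 to 18419977 in K146Q hypothalamus, 16468854 to 20339233 and 17898846 to 18329126 in pituitary, and 19451890 to 20534278 and 18611998 to 21230050 in thyroid. Levels are normalized CPM (the share of a gene in a library size that was corrected by a factor per library, in the usual CPM unit), and values are listed in the order of mice 1, 2 and 43 for WT and 60, 62 and 83 for K146Q. These levels are not divided by transcript length, so each sterol gene was compared only with itself between groups, and sums over marker genes and the most abundant marker of a list are in CPM, where longer transcripts weigh more.

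Cholesterol is made from acetyl-CoA through mevalonate and the isoprenoid farnesyl diphosphate to squalene, which is closed into lanosterol and trimmed to cholesterol. When sterols in the endoplasmic reticulum are low, SCAP carries the transcription factor SREBP2 to the Golgi apparatus for cleavage, and the cleaved form raises transcription of the synthesis genes; INSIG proteins hold SCAP back when sterols are plentiful. When sterols are high, the oxysterol-activated liver X receptors (LXR) raise transcription of genes for efflux and for the degradation of lipoprotein receptors. Thyroid hormone is known as a regulator of sterol metabolism, chiefly in liver.

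The tissues carried their defining transcripts. Tshb, the specific subunit of thyrotropin, was measured at 456 ± 193 CPM in WT and 6983 ± 1301 CPM in K146Q mice (SD, n = 3) in pituitary, 15.3-fold higher in the mutant (limma, adjusted P = 9.24e-05). Tg, the thyroid hormone precursor, was measured at 333547 ± 34931 CPM in WT and 103501 ± 24116 CPM in K146Q thyroid (SD, n = 3), without overlap, with an exact two-sided permutation p of 0.1, the smallest that 3 against 3 mice can give. The limma fit gave Tg an SE of 5.14 on the log2 scale (log2FC = -1.71, adjusted P = 0.82), which is far wider than the spread of the mice, so no call on Tg was taken from it. It took 23.8% to 29.03% of all reads in the WT thyroid libraries and 7.97% to 11.5% in the K146Q ones. Thrb itself, the mutated gene, was measured at 15.6 ± 0.679 CPM in WT and 5.94 ± 1.13 CPM in K146Q mice (SD, n = 3) in thyroid (log2FC = -1.33) and at 103 ± 4.35 CPM in WT and 162 ± 20.9 CPM in K146Q mice (SD, n = 3) in pituitary (log2FC = 0.65), and both differences passed the test. These are RNA levels, and the paper reports similar amounts of total THRB protein in WT and K146Q mice in both tissues. The thyroid library of WT mouse 1 stood apart in traces of pituitary transcripts, with Tshb at 35.9 CPM against 1.88 to 5.69 CPM in the other 5 thyroid libraries. Without that library, 14 of the 29 sterol genes passed in thyroid, against 16 with it, while the calls among all genes tested went from 2992 higher and 2747 lower to 2587 and 2026.

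In thyroid, sterol genes moved in both directions. Of the 29 genes, 13 were higher in K146Q thyroid and 3 were lower (limma on log2(CPM + 0.5), Benjamini-Hochberg adjusted P under 0.05), while 19.7% of the 15200 genes tested were higher and 18.1% were lower. All 3 K146Q values lay above all 3 WT values for 14 of the 29 genes and below them for 5, against 26.6% and 25.7% of all tested genes. The 13 higher genes were Mvd, Idi1 and Fdps of the mevalonate steps, Fdft1, Sqle, Cyp51, Msmo1 and Hsd17b7 of the steps from squalene to cholesterol, the regulators Insig1 and Srebf2, and Soat1, Abcg1 and Nr1h2 of storage, efflux and LXR signaling. The 3 lower genes were Acat2, Abca1 and Mylip. The median log2FC over the 29 genes was 0.15, against -0.025 over all tested genes. With library totals taken without the 10 highest genes, the split over all tested genes moved from 2992 higher and 2747 lower to 2496 higher and 3613 lower, and that of the sterol genes from 13 and 3 to 11 and 5. Since whole tissue was sequenced, fewer cells of a type and less RNA per cell cannot be told apart.

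**Figure D1:**
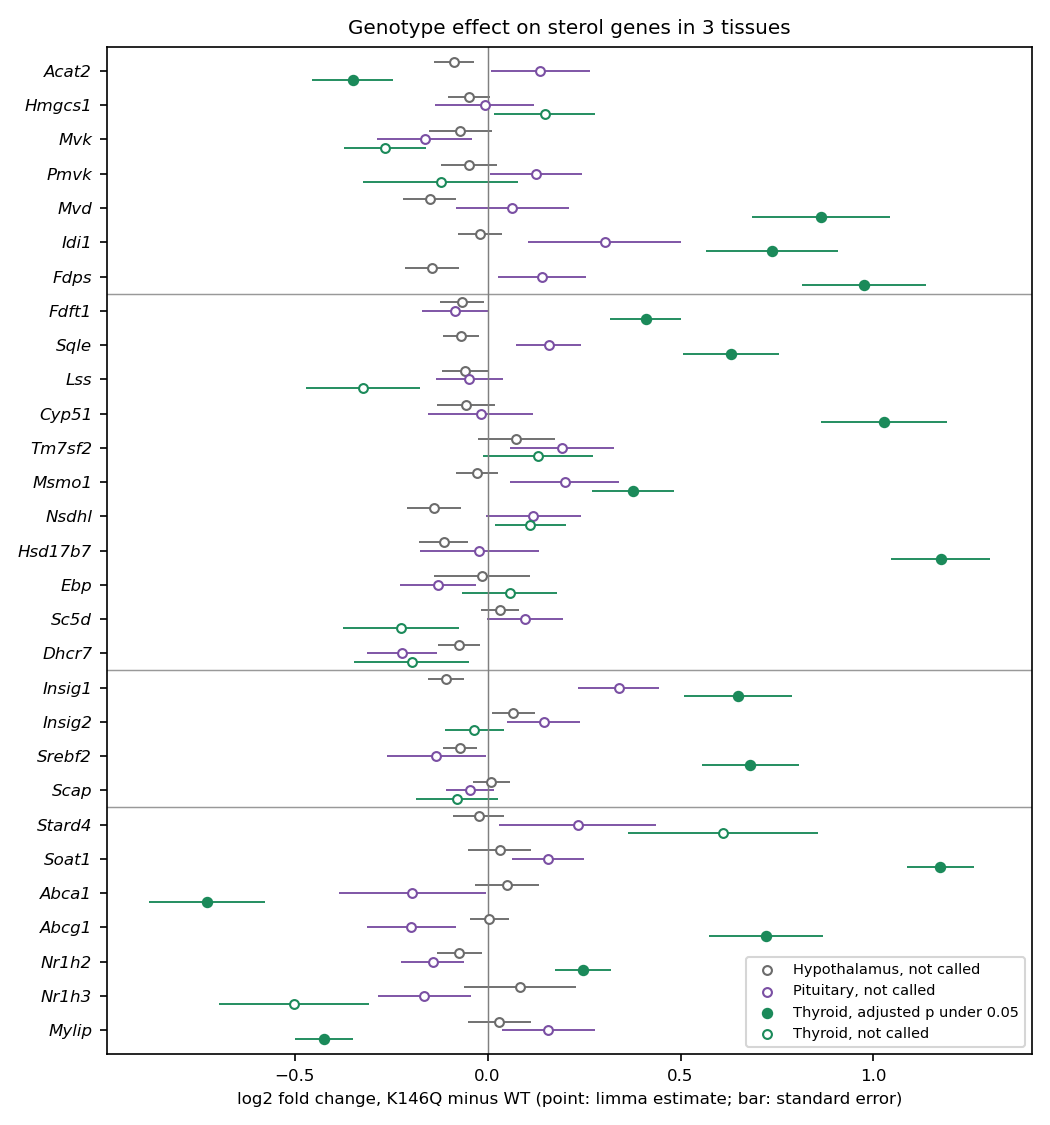
Genotype effect on each of the 29 sterol genes, as log2 fold change of K146Q over WT on the horizontal axis with its standard error, in hypothalamus, pituitary and thyroid (3 against 3 mice each); filled points passed an adjusted p of 0.05 and open points did not. Filled points are found in thyroid alone, 13 to the right of 0 and 3 to the left, and the hypothalamus points lie between -0.15 and 0.08.

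**Figure D2:**
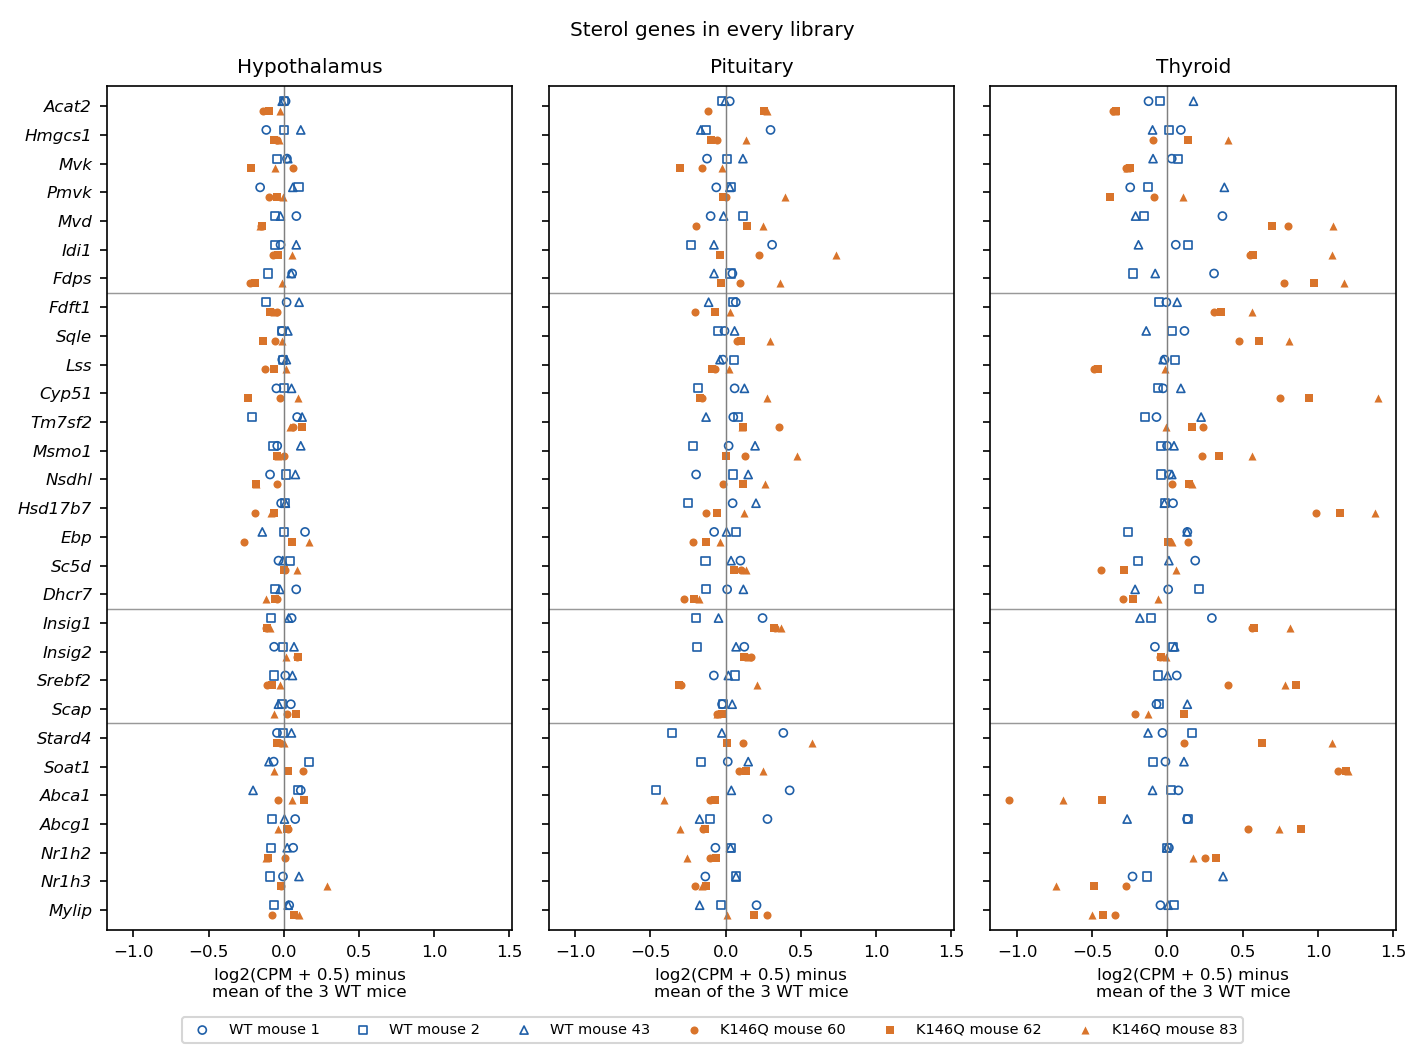
Each library's log2(CPM + 0.5) minus the mean of the 3 WT mice, for the 29 sterol genes in hypothalamus, pituitary and thyroid; open symbols are WT mice, filled symbols are K146Q mice, and the symbol shape gives the mouse. In thyroid the filled symbols lie wholly to the right of the open ones for 14 genes and wholly to the left for 5.

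Promoters of genes that SREBP2 controls are known to hold a sterol regulatory element beside boxes for the factors NF-Y and Sp1. RefSeq windows (GRCm38.p6) from 250 bases before to 50 bases after the start of transcription were given for 24 of the 29 genes, 31 windows in all, and none was given for Abcg1, Fdps, Fdft1, Stard4 and Sqle. The letters CCAAT (the NF-Y box), searched on both strands, were in 61.3% of these 31 windows and in 37.4% of all 32851 windows. GGGCGG (the Sp1 box) was in 77.4% and 35.7%, and TCACNCCAC (the core of a sterol regulatory element) in 3.23% and 1.24% (both strands, with matches allowed to overlap). CCAAT was in 8 of 9 windows of genes higher in K146Q thyroid and in 11 of 22 windows of the other genes. This split was not tested, and some of the other genes had more than 1 window. Repeated NF-Y boxes were found in genes of either direction, though Mylip was the only lower one. Besides Hsd17b7 and Mvd they were in the windows of Idi1 and Msmo1, which were higher in K146Q thyroid, of Mylip, which was lower, and of Mvk, Hmgcs1, Nsdhl, Ebp, Dhcr7 and Insig2, which did not pass. A match of this kind describes the sequence alone, and no binding was measured. The stretches upstream of Hsd17b7 and Mvd are printed as examples of repeated NF-Y boxes in genes that were higher in K146Q thyroid, and that of Hmgcs1 because it was the only window with the sterol element core. Each runs 5′ to 3′ on the strand of the gene, ends before the start annotated by RefSeq and by GENCODE M21, and has CCAAT (or ATTGG, its other strand) and the sterol element core in capitals.
Hsd17b7 (chr1:169969242-169969455, minus strand): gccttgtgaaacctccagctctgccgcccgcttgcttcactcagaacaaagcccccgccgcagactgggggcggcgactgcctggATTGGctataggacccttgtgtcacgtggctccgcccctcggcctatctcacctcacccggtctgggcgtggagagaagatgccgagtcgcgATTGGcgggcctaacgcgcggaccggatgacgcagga
Mvd (chr8:122443423-122443672, minus strand): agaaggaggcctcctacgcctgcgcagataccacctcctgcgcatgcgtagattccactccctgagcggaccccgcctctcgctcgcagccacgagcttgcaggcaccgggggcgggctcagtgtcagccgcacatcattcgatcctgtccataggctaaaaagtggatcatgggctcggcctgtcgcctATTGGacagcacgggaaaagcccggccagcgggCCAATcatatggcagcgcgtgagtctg
Hmgcs1 (chr13:119690101-119690350, plus strand): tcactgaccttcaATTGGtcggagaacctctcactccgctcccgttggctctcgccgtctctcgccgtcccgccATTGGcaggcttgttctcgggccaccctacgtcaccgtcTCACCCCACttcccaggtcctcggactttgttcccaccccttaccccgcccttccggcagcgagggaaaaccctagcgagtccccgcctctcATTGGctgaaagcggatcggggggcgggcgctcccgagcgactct
Counted from the RefSeq start, the boxes of Hsd17b7 begin at -165 and -73, with another at -12 that lies beyond the printed stretch. Those of Mvd begin at -60 and -27. The sterol element core of Hmgcs1 begins at -137, between NF-Y boxes at -176 and -45, and Hmgcs1 did not pass the test in any tissue.

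Of the 7 genes of the mevalonate steps, 3 were higher and 1 was lower in K146Q thyroid, and 3 did not pass. Of all genes tested in thyroid, 19.7% were higher and 18.1% were lower. Fdps, which makes farnesyl diphosphate, the last intermediate shared with other isoprenoids (GRCm38, GENCODE M21, chr3:89093588-89101959), read 34.9, 23.9 and 26.5 CPM in WT and 48.3, 55.6 and 63.96 CPM in K146Q mice. The K146Q values all lay above the WT values, and the highest WT value, in mouse 1, was well short of the lowest K146Q value. Mean Fdps rose 1.97-fold (log2FC = 0.97, SE 0.16, adjusted P = 0.00295). Fdps shares exons with Gm43738 on the same strand, which was not analysed here. Mvd, the decarboxylase that forms isopentenyl diphosphate, read 21.2, 14.6 and 14.01 CPM in WT and 28.8, 26.7 and 35.5 CPM in K146Q mice. Its K146Q values were also separate from the WT values, of which mouse 1 was again the highest. The mean was 16.6 ± 3.96 CPM in WT and 30.3 ± 4.59 CPM in K146Q mice (SD, n = 3), 1.83-fold higher (log2FC = 0.86, SE 0.18, adjusted P = 0.00811). Idi1, the isomerase that follows, read 15.1, 16.01 and 12.6 CPM in WT and 21.5, 21.7 and 31.5 CPM in K146Q mice. Mice 60 and 62 were nearly equal and mouse 83 stood above them, with all WT values below. Idi1 rose 1.71-fold (log2FC = 0.74, SE 0.17, adjusted P = 0.013). Acat2, the cytosolic thiolase at the entrance of the pathway, went the other way and read 25.1, 26.6 and 31.03 CPM in WT and 21.3, 21.6 and 21.5 CPM in K146Q mice. The K146Q values were almost identical and lay below all WT values. Acat2 fell 1.29-fold (log2FC = -0.35, SE 0.10, adjusted P = 0.0325), but the call was lost in 5 of the 6 fits that left out a mouse, where log2FC ran from -0.41 to -0.26, and over all alternatives the adjusted P ran from 0.012 to 0.0961. Its neighbouring copy Acat3 was at or below 1.14 CPM in every thyroid library. Hmgcs1, the synthase that makes HMG-CoA, read 52.4, 49.6 and 45.9 CPM in WT and 46.1, 54.2 and 65.2 CPM in K146Q mice. These ranges overlapped, with mouse 83 the highest, and the difference did not pass (log2FC = 0.15, SE 0.13, adjusted P = 0.407). The kinases Mvk and Pmvk had log2FC of -0.27 (adjusted P = 0.0849) and -0.12 (adjusted P = 0.669). All K146Q values of Mvk lay below all WT values, and Mvk passed when totals excluded the 10 highest genes (log2FC = -0.36, adjusted P = 0.0441; 0.0441 to 0.198 over all alternatives).

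Of the 11 genes from squalene to cholesterol, 5 were higher in K146Q thyroid, none was lower, and 6 did not pass. These counts stand beside 19.7% higher and 18.1% lower among all genes tested. Hsd17b7, a ketoreductase of sterol demethylation (chr1:169949535-169969241), read 9.41, 9.05 and 9.02 CPM in WT and 18.7, 20.9 and 24.7 CPM in K146Q mice. The WT values were nearly the same and every K146Q value was clear of them. It rose 2.34-fold (log2FC = 1.17, SE 0.13, adjusted P = 0.000501). Cyp51, the lanosterol demethylase (chr5:4081145-4104746), read 18.7, 18.3 and 20.3 CPM in WT and 32.4, 37.02 and 51.1 CPM in K146Q mice. Again the WT mice were close together, while the K146Q mice spread upward to mouse 83. Cyp51 rose 2.102-fold (log2FC = 1.03, SE 0.16, adjusted P = 0.00255). Its exons overlap those of Akap9 on the other strand, which moved the opposite way, from 166 to 124 CPM (log2FC = -0.43, adjusted P = 0.0251). Sqle, squalene epoxidase, read 16.7, 15.8 and 13.95 CPM in WT and 21.7, 23.8 and 27.4 CPM in K146Q mice. The groups did not overlap and mouse 83 was the highest K146Q value. Sqle rose 1.57-fold (log2FC = 0.63, SE 0.12, adjusted P = 0.0064). Fdft1, squalene synthase, read 45.5, 43.98 and 47.9 CPM in WT and 56.9, 58.6 and 67.8 CPM in K146Q mice. Here too all K146Q values exceeded all WT values, by a smaller step. Fdft1 rose 1.33-fold (log2FC = 0.41, SE 0.09, adjusted P = 0.011). Exons of Fdft1 overlap those of Ctsb, a cathepsin gene on the other strand that rose from 1402 to 6211 CPM (log2FC = 2.18, adjusted P = 0.000785). Whether the counting used strand is not given in the sources used here, so reads of Fdft1 and Ctsb, and those of Cyp51 and Akap9, cannot be told apart where they overlap. The same holds for Tm7sf2, which overlaps Vps51 on the same strand, and for Nr1h3, which overlaps Gm13783 on the same strand. It also holds for Idi1 (with Gm48574), Hmgcs1 (Gm48342), Lss (4930483K19Rik) and Scap (5830462I19Rik), whose exons overlap those of genes on the other strand.

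Msmo1, the methylsterol oxidase, read 26.8, 26.1 and 27.7 CPM in WT and 31.5, 34.1 and 39.8 CPM in K146Q mice. The groups were separate, and mouse 83 was the farthest from WT. It rose 1.31-fold (log2FC = 0.38, SE 0.11, adjusted P = 0.0263). The call was lost when K146Q mouse 62 or 83 or WT mouse 1 or 2 was left out, with a log2FC of 0.28 without mouse 83, and also with totals without the 10 highest genes (log2FC = 0.28, adjusted P = 0.068); over all alternatives the adjusted P ran from 0.016 to 0.0734. The 6 genes that did not pass were Tm7sf2 (log2FC = 0.13), Nsdhl (0.11), Ebp (0.06), Dhcr7 (-0.20), Sc5d (-0.22) and Lss (-0.32), with adjusted P from 0.122 for Lss to 0.748 for Ebp. They encode a sterol reductase, a decarboxylating dehydrogenase, an isomerase, the last reductase of the pathway, a desaturase and the cyclase that forms lanosterol. Lss, the cyclase, read 16.1, 16.9 and 16 CPM in WT and 11.5, 11.7 and 16.1 CPM in K146Q mice. K146Q mouse 83 was at the level of the WT mice and the other K146Q mice were below them. Without mouse 83, Lss passed as lower in K146Q thyroid (log2FC = -0.48, adjusted P = 0.0195; 0.0195 to 0.32 over all alternatives). Of these 6 genes, Nsdhl alone had K146Q values wholly above the WT values, by a narrow margin.

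**Figure D3:**
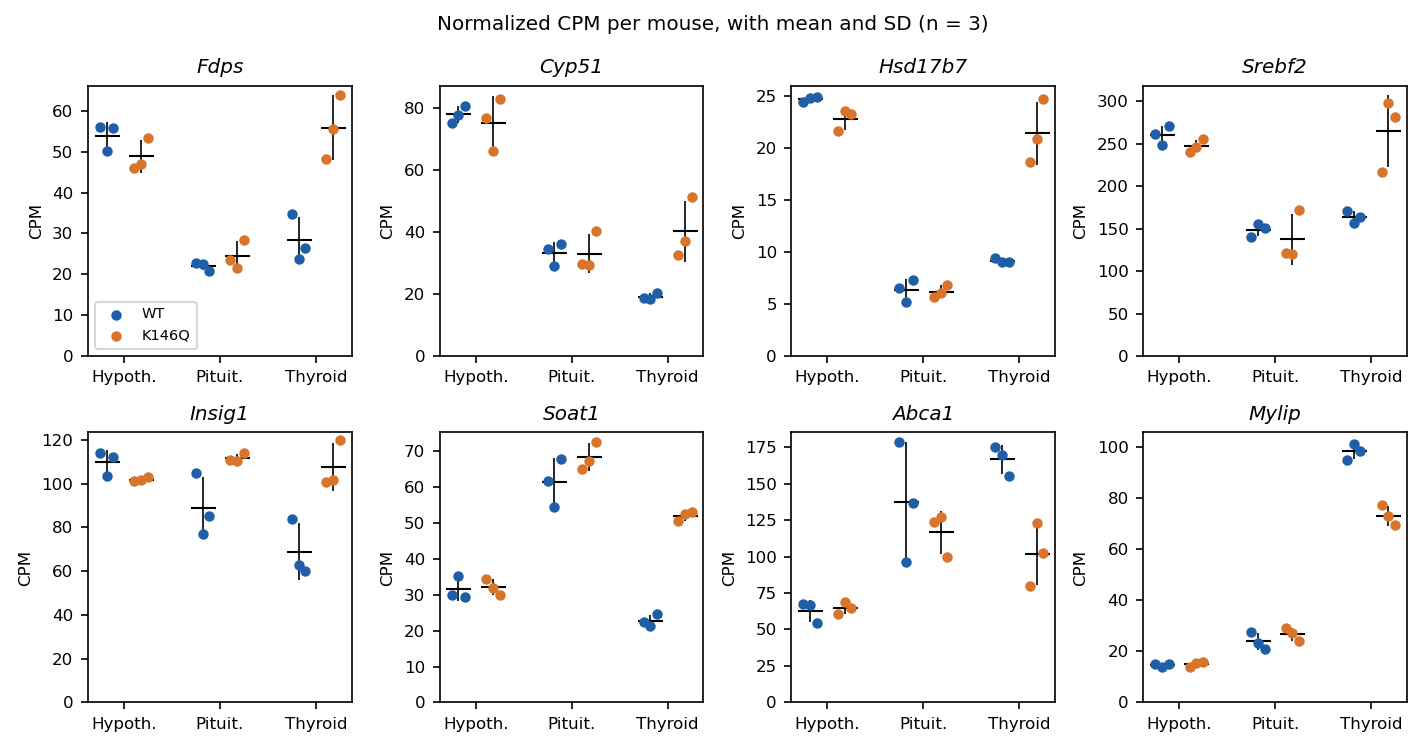
Normalized CPM of Fdps, Cyp51, Hsd17b7, Srebf2, Insig1, Soat1, Abca1 and Mylip in each mouse by tissue, with mean and SD (n = 3) in black, from 0 on the vertical axis of each panel. In thyroid the K146Q points of the first 6 genes lie above the WT points and those of Abca1 and Mylip lie below, while in pituitary the groups overlap for each of these genes but Insig1.

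Of the 4 genes of sterol sensing, the 2 that passed in thyroid were both higher. Among all genes tested there, 19.7% were higher and 18.1% were lower. Srebf2, which encodes SREBP2, read 171, 157 and 164 CPM in WT and 217, 298 and 282 CPM in K146Q mice. The WT values were tight, and mice 62 and 83 lay farther above them than mouse 60. Srebf2 rose 1.62-fold (log2FC = 0.68, SE 0.13, adjusted P = 0.00478). Insig1, which retains SCAP in the endoplasmic reticulum and is itself a target of SREBP, read 83.7, 63.02 and 59.96 CPM in WT and 101, 102 and 120.2 CPM in K146Q mice. The groups did not overlap, with WT mouse 1 the nearest to the K146Q mice. Insig1 rose 1.56-fold (log2FC = 0.65, SE 0.14, adjusted P = 0.00929). Its relative Insig2 was measured at 44.2 ± 2.22 CPM in WT and 43.1 ± 0.633 CPM in K146Q mice (SD, n = 3) (log2FC = -0.03, adjusted P = 0.756). The escort protein gene Scap was measured at 102 ± 8.35 CPM in WT and 97.2 ± 11.7 CPM in K146Q mice (SD, n = 3) (log2FC = -0.08, adjusted P = 0.598). For both, the groups overlapped.

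Among the 7 genes of transport, esterification, efflux and LXR, 3 were higher and 2 were lower in K146Q thyroid. The shares of all genes tested were 19.7% higher and 18.1% lower. Soat1, which esterifies cholesterol for storage in droplets (chr1:156424525-156474331), read 22.5, 21.3 and 24.6 CPM in WT and 50.5, 52.5 and 52.9 CPM in K146Q mice. Both groups were tight and far apart. Soat1 rose 2.28-fold (log2FC = 1.17, SE 0.09, adjusted P = 0.000112), with log2FC between 1.08 and 1.23 over every alternative run. The efflux transporters Abca1 and Abcg1, both known LXR targets, moved in opposite directions. Abca1, which loads cholesterol onto lipid-poor apolipoproteins (chr4:53030787-53159895), read 175, 169.5 and 155 CPM in WT and 79.9, 123 and 103 CPM in K146Q mice. Every K146Q value lay below every WT value, mouse 60 the lowest. Abca1 fell 1.64-fold (log2FC = -0.73, SE 0.15, adjusted P = 0.00795). Abcg1, which passes sterols to mature lipoprotein particles, read 18.6, 18.7 and 14.01 CPM in WT and 24.8, 31.9 and 28.7 CPM in K146Q mice. Its K146Q values lay wholly above the WT values, mouse 62 the highest. Abcg1 rose 1.66-fold (log2FC = 0.72, SE 0.15, adjusted P = 0.00773). Mylip, an LXR target that marks lipoprotein receptors for degradation, read 94.98, 101 and 98.5 CPM in WT and 77.1, 72.9 and 69.2 CPM in K146Q mice. The groups were separate and tight. Mylip fell 1.34-fold (log2FC = -0.42, SE 0.07, adjusted P = 0.00401).

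Of the LXR genes, Nr1h2 (LXRβ) read 109, 108 and 108 CPM in WT and 129, 136 and 122 CPM in K146Q mice. The WT values were almost equal and the K146Q values lay above them. Nr1h2 rose 1.19-fold (log2FC = 0.25, SE 0.07, adjusted P = 0.0309), a call lost in 5 of the 6 fits that left out a mouse (log2FC from 0.21 to 0.29), under quantile normalization (0.21, adjusted P = 0.0546), with no variance trend (0.25, adjusted P = 0.0652) and with totals without the 10 highest genes (log2FC = 0.15, adjusted P = 0.152), within a range of 0.0172 to 0.152 over all alternatives. Nr1h3 (LXRα) read 12.9, 13.9 and 19.9 CPM in WT and 12.5, 10.8 and 8.97 CPM in K146Q mice. The K146Q mice all read lower than the WT mice, of which mouse 43 was the highest. The difference did not pass (log2FC = -0.50, SE 0.19, adjusted P = 0.0776), though it did with totals without the 10 highest genes (log2FC = -0.59, adjusted P = 0.0379; 0.0379 to 0.201 over all alternatives). Stard4, a soluble sterol carrier, read 5.24, 6.07 and 4.87 CPM in WT and 5.85, 8.58 and 12.02 CPM in K146Q mice. K146Q mouse 60 fell within the WT range and mouse 83 was far above it. The difference did not pass (log2FC = 0.61, SE 0.25, adjusted P = 0.0869), but it did by DESeq2 on the recovered reads (log2FC = 0.72, adjusted P = 0.0444) and without mouse 60 (log2FC = 0.86, adjusted P = 0.0203), within 0.0203 to 0.217 over all alternatives. The other 13 calls in thyroid, Mvd, Idi1, Fdps, Fdft1, Sqle, Cyp51, Hsd17b7, Insig1, Srebf2, Soat1, Abca1, Abcg1 and Mylip, passed under each of the 10 other settings and without each of the 6 mice.

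Markers of other cell types also differed between K146Q and WT thyroid, and the part of this in the sterol gene results was not tested. All 5 adipocyte markers were lower; their sum was 414, 402 and 366 CPM in WT and 109, 54.3 and 54.8 CPM in K146Q mice, with Cidec the most abundant. All 3 parathyroid markers were lower, with sums of 3454, 6409 and 4129 CPM in WT and 1569, 523 and 622 CPM in K146Q mice and Pth the most abundant. Of 3 C cell markers, 2 were lower and 1 was higher, with sums of 8898, 14899 and 10045 CPM in WT and 3490.3, 1314 and 1653 CPM in K146Q mice and Chga the most abundant. All 5 proliferation markers were higher; they summed to 71.5, 46.7 and 68.7 CPM in WT and 171, 168 and 215 CPM in K146Q mice, led by Mki67. Of the 4 macrophage markers found, 2 were higher and none was lower, with sums of 361, 172 and 320.1 CPM in WT and 594, 482 and 499 CPM in K146Q mice and Lyz2 the most abundant. The 4 skeletal muscle markers did not pass, but their sum varied from library to library, at 238, 3405 and 5053 CPM in WT and 2969, 645 and 526 CPM in K146Q mice, with Myh4 the most abundant. The 6 follicular markers summed to 351839, 358908 and 295495 CPM in WT and 85679, 98249 and 132396 CPM in K146Q mice, nearly all of it Tg, and of the 5 besides Tg, 1 was higher and 1 was lower. None of the markers in these lists was at 0 in all 6 thyroid libraries.

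In pituitary, none of the 29 sterol genes passed in either direction by limma, while 6.36% of the 15589 genes tested were higher and 3.5% were lower in K146Q mice. At an unadjusted p under 0.05, 2 of the 29 sterol genes were found, Insig1 and Dhcr7, beside 25.2% of all genes tested. On the recovered reads edgeR called 0 sterol genes, with 1001 higher and 529 lower among all genes, and DESeq2 called 1, Insig1, with 1122 higher and 686 lower. The K146Q values lay wholly above the WT values for 4 genes (Sqle, Tm7sf2, Insig1 and Insig2) and wholly below for 2 (Dhcr7 and Scap), against 16.7% and 14.3% of all genes tested. Insig1 read 105, 76.8 and 85.3 CPM in WT and 111, 111 and 114 CPM in K146Q mice. The K146Q values were close together, and WT mouse 1 approached them. Its means were 88.9 ± 14.3 CPM in WT and 112 ± 1.79 CPM in K146Q mice (SD, n = 3) (log2FC = 0.34, SE 0.11, adjusted P = 0.0746), and without WT mouse 1 it passed (log2FC = 0.46, adjusted P = 0.00844), as it did by DESeq2 (log2FC = 0.33, adjusted P = 0.0391); the range over all alternatives was 0.00844 to 0.21. Dhcr7, the reductase of the last step, read 36.2, 32.8 and 39.02 CPM in WT and 29.5, 31.04 and 31.7 CPM in K146Q mice. The K146Q values were the lower ones, without overlap, but the difference did not pass (log2FC = -0.22, SE 0.09, adjusted P = 0.162). Idi1, with the largest log2FC among the mevalonate genes, read 23.1, 15.7 and 17.5 CPM in WT and 21.7, 18.02 and 31.1 CPM in K146Q mice. The ranges overlapped, with K146Q mouse 83 above all others (log2FC = 0.30, SE 0.20, adjusted P = 0.385). Stard4, the largest of the transport group, read 14.7, 8.58 and 10.9 CPM in WT and 12.1, 11.2 and 16.8 CPM in K146Q mice. WT mouse 1 and K146Q mouse 83 were its high values, and the groups overlapped (log2FC = 0.23, SE 0.20, adjusted P = 0.525).

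The other 25 sterol genes in pituitary had log2FC from -0.20 for Abcg1 to 0.20 for Msmo1, and the median over all 29 was 0.064 against -0.00875 over all tested genes. Hsd17b7 and Cyp51, raised in thyroid, had log2FC of -0.02 and -0.02 in pituitary, and Srebf2 had -0.13. The K146Q pituitary held more thyrotroph transcripts: all 3 thyrotroph markers were higher, with sums of 3892, 3398 and 4609 CPM in WT and 28977, 26592 and 21859 CPM in K146Q mice and Cga the most abundant. The single lactotroph marker Prl was lower, at 19074, 24885 and 30662 CPM in WT and 6929, 7823 and 8664 CPM in K146Q mice. Of the 2 somatotroph markers, 1 was lower and the sum, nearly all Gh, was 97899, 125616 and 213197 CPM in WT and 62593, 74286 and 75481 CPM in K146Q mice. Of the 4 macrophage markers found, 3 were higher, with sums of 48.5, 44.4 and 58.4 CPM in WT and 135, 100.4 and 81.5 CPM in K146Q mice and Csf1r the most abundant. No marker of these lists was at 0 in all 6 pituitary libraries, and their part in the sterol gene values was not tested.

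In hypothalamus, none of the 29 sterol genes passed by limma, and neither did any of the 15761 genes tested (0% higher and 0% lower). At an unadjusted p under 0.05 there were 645 genes (4.09%), of which 1, Insig1, was a sterol gene; edgeR called 0 genes and DESeq2 called 9, with no sterol gene among them. Log2FC ran from -0.15 for Mvd to 0.08 for Nr1h3. It was below 0 for 20 of the 29, and for 7975 of the 15761 genes tested. Insig1 read 114, 104 and 112 CPM in WT and 101, 102 and 103 CPM in K146Q mice. Its K146Q values lay just below the WT values (log2FC = -0.11, SE 0.05, adjusted P = 0.998). Mvd read 21.96, 19.8 and 20.4 CPM in WT and 18.6, 18.7 and 18.5 CPM in K146Q mice. Here as well the K146Q values were the lower ones, without overlap (log2FC = -0.15, SE 0.07, adjusted P = 0.998). Fdps read 56.03, 50.1 and 55.8 CPM in WT and 45.9, 47.1 and 53.5 CPM in K146Q mice. Mouse 83 fell within the WT range and the groups overlapped (log2FC = -0.14, SE 0.07, adjusted P = 0.998). The 5 hypothalamic neuropeptide markers, of which Pmch was the most abundant, summed to 498, 553 and 632 CPM in WT and 512, 411 and 537 CPM in K146Q mice, none of them passed, and none was at 0.

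The genotype effects of the tissues were then compared directly, in a single fit of all 18 libraries. This fit gave each gene a spread shared by all tissues, although replicates differed more in some tissues than in others. The SE of Insig1 was 0.16 in every contrast. Within single tissues it was 0.05 in hypothalamus, 0.11 in pituitary and 0.14 in thyroid. Contrasts with thyroid can therefore look too precise, and that of pituitary with hypothalamus too imprecise. The effect in thyroid exceeded that in pituitary for 10 sterol genes and fell short of it for 2, against 16.4% and 17.4% of the 17140 genes tested. It exceeded that in hypothalamus for 12 and fell short for 2, against 15.6% and 15.2%. Between pituitary and hypothalamus 0 of the 29 differed by limma, against 2.29% above and 0.945% below among all genes; 1 did at an unadjusted p under 0.05, beside 14.8% of all genes, and this was Insig1, with a log2 difference of 0.45 (adjusted P = 0.177), which passed without WT mouse 1 (0.54, adjusted P = 0.02). Count models were not run on these differences. Both contrasts of thyroid use the same thyroid libraries, so they are not independent. For Hsd17b7 the log2 effect in thyroid exceeded that in pituitary by 1.2 (SE 0.17, adjusted P = 3.95e-05) and that in hypothalamus by 1.29 (SE 0.17, adjusted P = 2.29e-05). For Soat1 the differences were 1.02 (adjusted P = 1.28e-05) and 1.14 (adjusted P = 4.47e-06), and for Cyp51 they were 1.05 (adjusted P = 0.000932) and 1.08 (adjusted P = 0.000787). Fdps, Mvd, Sqle, Fdft1, Srebf2, Abcg1 and Nr1h2 passed in both contrasts with larger effects in thyroid, from 0.39 for Nr1h2 to 0.92 for Abcg1 against pituitary. Mylip passed in both with a lower effect in thyroid (-0.58 and -0.45). Insig1 and Idi1 passed against hypothalamus (0.76 and 0.76) but not against pituitary (0.31, adjusted P = 0.159, and 0.43, adjusted P = 0.206). Abca1 likewise passed against hypothalamus (-0.78) and not against pituitary (-0.53, adjusted P = 0.119), and Acat2 passed against pituitary (-0.49) and not against hypothalamus (-0.26, adjusted P = 0.159). Msmo1 did not pass against hypothalamus (0.40, adjusted P = 0.0758). Calls lost without a given mouse were those of Acat2 (without K146Q mouse 62 or 83 or WT mouse 43), Mvd (without WT mouse 2) and Sqle (without WT mouse 43) against pituitary, and those of Abca1 (K146Q mouse 60 or 83, or WT mouse 43), Mylip (K146Q mouse 62 or 83, or WT mouse 2), Idi1 (K146Q mouse 60, or WT mouse 1 or 43) and Nr1h2 (K146Q mouse 62, or WT mouse 1 or 43) against hypothalamus. Idi1 and Nr1h2 were also lost there under quantile normalization and with totals without the 10 highest genes. Gained without a mouse were Abca1 and Insig1 (WT mouse 1) and Lss and Sc5d (K146Q mouse 83) against pituitary, and Lss (K146Q mouse 83), Nr1h3 and Stard4 (K146Q mouse 60) against hypothalamus. Nr1h3 was also gained there with at least 1 CPM in every library (adjusted P = 0.0441), with totals without the 10 highest genes (0.0261) and with no variance trend (0.0468).

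In WT mice the synthesis genes stood highest in hypothalamus. Of the 18 synthesis genes, 17 were lower in WT thyroid than in WT hypothalamus and 16 were lower in WT pituitary, with Ebp, the sterol isomerase, higher in both. Some of these calls changed with the setting. Against thyroid, that of Mvd was lost without WT mouse 2 or 43 or K146Q mouse 62, with no filter and under quantile normalization (-0.33 with all mice, -0.24 without WT mouse 43), that of Sc5d without WT mouse 2 or 43, and that of Tm7sf2 without WT mouse 1 and under quantile normalization. Against pituitary, those of Dhcr7, Fdft1 and Pmvk were lost with totals without the 10 highest genes, that of Fdft1 also under quantile normalization, and that of Pmvk also without WT mouse 2. Of all 29 sterol genes, 5 were higher and 23 lower in thyroid than in hypothalamus, against 41.9% and 40% of the 17140 genes tested, and 9 were higher and 19 lower in pituitary than in hypothalamus, against 37% and 35.9%. Sqle was measured at 81.4 ± 1.33 CPM in hypothalamus, 49.3 ± 1.94 CPM in pituitary and 15.5 ± 1.41 CPM in thyroid (SD, n = 3). The fall from hypothalamus to thyroid was the largest of the synthesis genes (log2 difference -2.36, SE 0.09, adjusted P = 4.22e-14), followed by Hmgcs1 (-2.29), Dhcr7 (-2.05) and Cyp51 (-2.0). Hmgcs1 was at 243 ± 19.3 CPM in hypothalamus and at 52.3 ± 9.898 and 49.3 ± 3.24 CPM in pituitary and thyroid, which did not differ beyond their spread (log2 difference -0.07, SE 0.12, adjusted P = 0.624), though with totals without the 10 highest genes thyroid was the lower (-0.36, adjusted P = 0.014), where the median of all genes was -0.275. Among the genes of the LXR axis, 4 were higher in thyroid than in hypothalamus. Mylip was at 14.7 ± 0.588 CPM in hypothalamus, 23.96 ± 3.29 CPM in pituitary and 98.2 ± 3.05 CPM in thyroid, and was 2.7 higher in thyroid than in hypothalamus on the log2 scale. Nr1h3 (2.18), Abca1 (1.4) and Nr1h2 (1.11) were likewise higher in thyroid, while Abcg1 was lower (-2.41).

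Between WT thyroid and WT pituitary, 11 of the 29 genes were higher and 11 lower in thyroid, against 37% and 38.6% of all genes tested. The higher genes included Mylip (log2 difference 2.02), Acat2 (1.1), Sc5d (1.09) and Mvd (0.98), and the lower ones included Abcg1 (-2.85), Dhcr7 (-1.69), Sqle (-1.64) and Soat1 (-1.41). This contrast moved with the scaling. With totals without the 10 highest genes the median of all genes shifted by -0.249 and the split over all genes was 4827 higher and 8433 lower, with 8 and 15 among the sterol genes, and Mvk turned from 0.27 to -0.0049, which is 0.27 above that median. For pituitary against hypothalamus the median shifted by 0.241 and the split was 8187 and 4784, with 9 and 15 among the sterol genes. Soat1 stood lower in WT thyroid than in WT pituitary, 22.8 against 61.4 CPM, and in K146Q mice the means were 51.98 and 68.3 CPM.

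**Figure D4:**
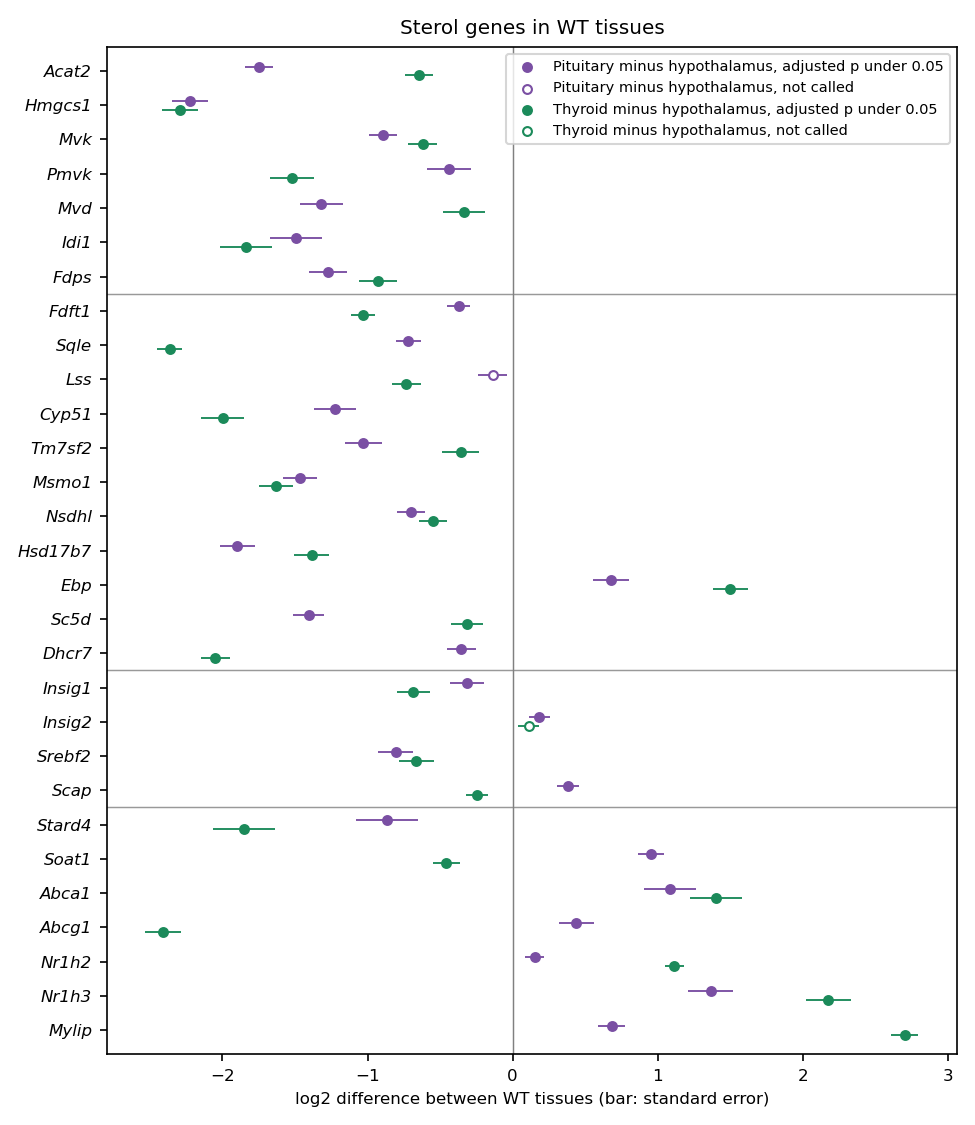
Log2 difference of WT thyroid and WT pituitary from WT hypothalamus on the horizontal axis, with standard error, for the 29 sterol genes from the fit of all 18 libraries; filled points passed an adjusted p of 0.05. Synthesis genes lie mostly to the left of 0, down to -2.36 for Sqle in thyroid, with Ebp to the right, and Mylip, Nr1h3 and Abca1 lie to the right.

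Among K146Q libraries, those numbered 83 most often held the highest values of the synthesis genes. In pituitary the library numbered 83 held the highest K146Q value for 17 of the 18 synthesis genes and 38.0% of all genes tested. In thyroid the library numbered 83 was highest for 14 of 18 (36.1% of all genes), and in hypothalamus for 10 of 18 (36.0%). In the libraries numbered 83, the synthesis genes lay a median of 0.19 above the K146Q mean in thyroid and 0.14 in pituitary (log2 scale). In hypothalamus this median was 0.035, beside 0.038 above the WT mean for WT mouse 43. In hypothalamus WT mouse 43 held the highest WT value for 11 of 18 (34.1% of all genes), against 10 for mouse 83 among the K146Q values, while in pituitary and thyroid no WT mouse did so for more than 7 of 18. With mouse 83 left out, 15 of the 29 sterol genes passed in thyroid, 12 higher and 3 lower, while among all genes tested 2607 were higher and 2499 lower.

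A wider list of 55 genes around the same pathway was examined, of which 53 were found. In thyroid 7 of 51 tested were higher and 13 were lower, beside 19.7% and 18.1% of all genes tested, in pituitary 4 of 51 were higher and 2 were lower, beside 6.36% and 3.5%, and in hypothalamus 0 of 50 passed by limma. The groups of this list below are to be read against the same shares. Of the 11 genes of precursor supply and isoprenoid branches, 4 were lower in K146Q thyroid and none was higher. The largest change was in Acss2, which makes cytosolic acetyl-CoA from acetate and read 67.4, 59.6 and 54.7 CPM in WT and 11.9, 6.11 and 9.204 CPM in K146Q mice. The groups were far apart (log2FC = -2.71, SE 0.22, adjusted P = 0.000154). Of the further LXR-responsive genes, 1 of the 6 tested was higher and 1 was lower. Arl4c, a small GTPase, read 29.1, 14.5 and 17.7 CPM in WT and 152, 171 and 152 CPM in K146Q mice. Every K146Q value was several times every WT value (log2FC = 2.98, SE 0.23, adjusted P = 0.00012). Scd1, a fatty acid desaturase, read 5893, 4637 and 2971 CPM in WT and 378, 174 and 286 CPM in K146Q mice. All K146Q values lay far below all WT values (log2FC = -4.02, SE 0.34, adjusted P = 0.000172). Adipocyte markers were also lower in these libraries, and their part in the changes of Scd1 and Acss2 was not tested.

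Of the 14 genes of sterol uptake and movement, 2 were higher and 3 were lower in K146Q thyroid, shares near those of all genes tested. Npc2, which hands cholesterol on inside lysosomes, read 746, 681 and 824 CPM in WT and 2286, 1856 and 1701 CPM in K146Q mice. The groups did not overlap (log2FC = 1.37, SE 0.16, adjusted P = 0.000765). Among the 6 oxysterol and side-chain enzymes, 1 was higher and 2 were lower in thyroid. Cyp39a1, an oxysterol hydroxylase, was measured at 25.5 ± 1.37 CPM in WT and 40.6 ± 2.24 CPM in K146Q mice (SD, n = 3) (log2FC = 0.66, SE 0.09, adjusted P = 0.00121). Cyp46a1, a cholesterol hydroxylase known from neurons, was low throughout, at 7 to 33 reads a library and 1.51 ± 0.57 CPM in WT and 0.577 ± 0.196 CPM in K146Q mice (SD, n = 3) (log2FC = -0.88, SE 0.27, adjusted P = 0.038). In pituitary, 3 of the 14 uptake and movement genes were higher and none was lower. Stard5, a sterol carrier, read 25.9, 26.2 and 37.4 CPM in WT and 65.2, 56.7 and 46.9 CPM in K146Q mice. The K146Q values were the higher ones throughout (log2FC = 0.91, SE 0.16, adjusted P = 0.00678). Vldlr, a lipoprotein receptor, was measured at 57.5 ± 3.196 CPM in WT and 78.7 ± 5.08 CPM in K146Q mice (SD, n = 3) (log2FC = 0.45, SE 0.08, adjusted P = 0.00742). Scarb1, which takes up sterols from high-density lipoprotein, was measured at 51.3 ± 6.36 CPM in WT and 66.8 ± 3.68 CPM in K146Q mice (SD, n = 3) (log2FC = 0.38, SE 0.10, adjusted P = 0.0408), and was among the 3 lower genes of this group in thyroid. The lower genes of K146Q pituitary were Cyp27a1, a sterol hydroxylase of mitochondria (log2FC = -0.81, SE 0.15, adjusted P = 0.0103), and Scd1 (log2FC = -0.62, SE 0.13, adjusted P = 0.016). Of the 9 genes of SREBP processing and enzyme turnover, 2 were higher and 1 was lower in thyroid and 1 was higher in pituitary. Of the 5 sterol enzyme partners found, 1 was higher and 2 were lower in thyroid.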

How the data were processed

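Per the labels, the submitters' processing notes name bcl2fastq 2.17, Bowtie2 2.1.0, RSEM 1.2.15 and mm10; the annotation, the use of strand and the normalization software are not given in the sources used here. For each tissue the authors deposited a normalized signal per gene and library, which is CPM of a library size times a factor per library. The average log2 column that the authors deposited was equal in the 3 tables (within 1e-06) for the 24027 symbols found once in each, so a joint scale of the 18 libraries was inferred, and tissues were compared on it. The tables also hold fold changes, p-values and FDR of a genotype comparison made by the authors, which were not used. Divided by the worth of 1 read, 100% of the values were whole (tolerance 0.05), and 3 reads correspond to 0.133 to 0.190 CPM. Replicates differed by more than sampling noise (the lowest chi-square divided by its degrees of freedom was 6.11).

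The genes and lists were chosen with earlier results of these data known. The main test was limma 3.58.1 (R 4.3.3) with a mean-variance trend on log2(value + 0.5), so that a fold change on this scale understates that of low genes. A gene was tested in a tissue when 3 or more of the 6 libraries reached 0.5 CPM, which kept all 29 sterol genes in each tissue, with Benjamini-Hochberg adjustment over all genes tested and a threshold of 0.05. Tissues were contrasted in a fit of 6 group means, with a spread per gene shared by all tissues. Alternatives were pseudocounts of 0.1 and 1, no filter, quantile normalization, a minimum of 1 CPM throughout, rescaling by median ratios, totals without the 10 highest genes, no trend, edgeR 4.0.16 and DESeq2 1.42.0 on recovered reads, and leaving out each mouse. The fit was tested on simulated counts with the same spread for every gene and tissue. The real replicates differed in spread between tissues, so that test does not show how the fit performs on them. Values of every library are given for the genes that passed in thyroid, those with the largest change of each role group in pituitary and those with the 3 smallest p-values in hypothalamus, and some others were added after their values were seen (Hmgcs1, Lss, Nr1h3 and Stard4 in thyroid). Stard4 is on chromosome 18, whose genes the rule left unnamed, and is given because it is among the 29. Other pathway genes are named where they passed, at most 3 in each direction and tissue.

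The labels give the same 6 numbers in each tissue without saying that they mark the same animals, so the fit with the number as a block was an alternative only. No number is shared by the genotypes of a tissue. The labels give no batch. Separate mice are the replicates. Gene coordinates are from GENCODE M21 and promoter windows from RefSeq (both GRCm38), and the motif positions are counted from the RefSeq start.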

Additional observations from a re-analysis of the deposited data

Results flagged for a closer look

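The genotype effect differed between tissues for 12 of the 29 sterol genes in thyroid against pituitary and for 14 in thyroid against hypothalamus. These calls are from limma with a spread shared by all tissues, at an adjusted p under 0.05 over the 17140 genes tested. Both contrasts use the same thyroid libraries. Of all genes tested, 16.4% had a higher effect in thyroid than in pituitary and 17.4% a lower one. The shares against hypothalamus were 15.6% and 15.2%. Against pituitary, the log2 effect in thyroid was higher for Hsd17b7 by 1.2, Cyp51 by 1.05, Soat1 by 1.02, Abcg1 by 0.92, Fdps by 0.83, Srebf2 by 0.81, Mvd by 0.80, Fdft1 by 0.49, Sqle by 0.47 and Nr1h2 by 0.39. For Mylip the difference was -0.58 and for Acat2 it was -0.49. Against hypothalamus, the effect in thyroid was higher for Hsd17b7 by 1.29, Soat1 by 1.14, Fdps by 1.12, Cyp51 by 1.08, Mvd by 1.01, Idi1 by 0.76, Insig1 by 0.76, Srebf2 by 0.75, Abcg1 by 0.72, Sqle by 0.70, Fdft1 by 0.48 and Nr1h2 by 0.32. For Abca1 the difference was -0.78 and for Mylip it was -0.45. The causes of these differences were not tested.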

How the results depend on the processing

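The 13 thyroid calls named in the report as passing under every setting kept their direction throughout; Msmo1, Acat2 and Nr1h2 did not stay past the threshold. Over the 29 genes, 3 tissues and all alternatives, the genotype effects stayed on the same side of the threshold 1367 times, were lost 18 times and were gained 7 times. DESeq2 called 9 genes in hypothalamus, and 1 sterol gene in pituitary. With at least 1 CPM in every library, 343 genes differed in effect between pituitary and hypothalamus, against 555. Leaving out a mouse gave 0 to 6 calls in hypothalamus, 625 to 1345 in pituitary (1537 with all mice; lowest without K146Q mouse 60 and 752 without mouse 62) with 0 to 1 sterol genes, and 3602 to 5106 in thyroid (5739 with all; lowest without K146Q mouse 62) with 13 to 15 sterol genes. It gave 3476 to 4680 differences of effect between thyroid and hypothalamus (5281 with all) and 228 to 446 between pituitary and hypothalamus, with 0 to 1 sterol genes. The WT difference of Mvk between thyroid and pituitary turned to -0.0049 with totals without the 10 highest genes; under that scaling the effects split into 837 higher and 879 lower genes in pituitary (991 and 546 otherwise), 2156 and 3354 for thyroid against hypothalamus, and 336 and 239 for pituitary against hypothalamus. Quantile normalization shifted the median WT difference from hypothalamus by 0.106 in thyroid and 0.101 in pituitary.

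With the mouse number as a replicate block, the differences of effect numbered 5955 for thyroid against pituitary, 5495 for thyroid against hypothalamus and 576 for pituitary against hypothalamus, with 12, 15 and 0 sterol genes. The labels do not say that a number marks the same animal in each tissue. Same-number libraries deviated together weakly (correlations of -0.027 to 0.174). Of 18 same-number pairs of libraries, 10 correlated best with their own number, among 3 candidates each. These were 5 of 6 between pituitary and thyroid, 3 of 6 between hypothalamus and pituitary and 2 of 6 between hypothalamus and thyroid. The paired fit added the call of Msmo1 between thyroid and hypothalamus (0.40, adjusted P = 0.031) and that of Idi1 between WT thyroid and WT pituitary (-0.34, adjusted P = 0.0366, against 0.0924 without the block), and changed no other call of a sterol gene. Depth limits the lowest genes, of which Nr1h3 in hypothalamus, at 48 to 70 reads a library, was the lowest among the 29, and Cyp46a1 in thyroid, at 7 to 33 reads, was lower still. With 3 mice a group, a difference that did not pass is not shown to be absent.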
